A study of Drosophila melanogaster with 19 samples.

Results

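The nuclear genes for proteins of the mitochondrial ribosome were examined in *Drosophila melanogaster* embryos of 5 *chiffon* genotypes. The genes were chosen by name alone, as every gene in the count table whose FlyBase symbol starts with mRpL (large subunit) or mRpS (small subunit). This gave 72 of 17807 genes, 47 of the large and 25 of the small subunit. They lie on chromosome X (11 genes) and on the arms 2L (12), 2R (12), 3L (16) and 3R (21). A 73rd gene of this name in the annotation, mRpS5, was not analysed here.

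Mitochondria keep a small genome of their own, and the few proteins it encodes, all of them parts of the respiratory chain and ATP synthase in animals, are made inside the organelle by a dedicated ribosome. The RNA of that ribosome comes from mitochondrial DNA, whereas its proteins are encoded in the nucleus, made in the cytoplasm and imported. Some of these proteins have a counterpart of the same number in bacterial ribosomes, and others are found only in mitochondria. In embryos of this age, mitochondria are still largely those laid down in the egg.

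RNA abundance was measured in 19 libraries from pooled embryos at stages 12 to 14, picked by hand for GFP fluorescence. The null embryos (n = 4) carried the *chiffon* null alleles ETBE3 and DsRed over each other. The ΔN (n = 4), FLWF24 (n = 4) and FL (n = 3) embryos carried, in that same null background, a *chiffon* transgene under the regulatory regions of the gene. The WT embryos (n = 4) were the parental line, and all 5 genotypes expressed GFP from Actin-Gal4. FL encodes the full-length protein. FLWF24 has an early stop, and in ΔN the N-terminal part was removed. Both therefore make Chiffon-B, which joins the histone acetyltransferase complex CHAT, but not Chiffon-A, which joins the cell cycle kinase DDK. The null embryos thus had no intact *chiffon* copy of their own.

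The libraries held 5161281 (ΔN replicate 4) to 21621677 (null replicate 3) counts in genes other than rRNA genes. Per library, 63.6% to 96.0% of the assigned and unassigned counts lay outside the gene entries, with the highest share in ΔN replicate 4. The correlation of log2 CPM between replicates was 0.769 to 0.938 over all genes and 0.519 to 0.893 over the members of the mitochondrial ribosome in the 27 pairs of one genotype. The *chiffon* gene itself averaged 29.1 ± 6.91 CPM (counts scaled to the TMM-adjusted library size) in null, 444.7 ± 132.6 in ΔN, 254.1 ± 40.9 in FLWF24, 238.0 ± 14.0 in FL and 251.4 ± 25.8 CPM in WT embryos (SD). In ΔN replicate 4 it was at 250.4 CPM, beside 482.8 to 548.6 CPM in the other ΔN libraries. A stage score was taken as the mean log2(CPM + 1) of late muscle and cuticle genes minus that of early embryonic genes. Its mean differed between genotypes, at 3.80 ± 1.59 in null, 0.200 ± 1.86 in ΔN, 0.0620 ± 0.597 in FLWF24, -1.54 ± 0.647 in FL and 0.819 ± 1.01 in WT embryos. The replicates are biological by the study's account, but separate matings are not stated, so the p-values measure the spread between these libraries.

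Mitochondrial ribosomal protein transcripts were of moderate abundance and close to each other in level. Together they took 0.194% to 0.290% of the gene counts of a library. Of the 72 genes, 71 passed the filter on low counts. Per kilobase of exon, their mean levels over the 19 libraries ran from 9.90 CPM per kb for mRpL21 to 131.3 CPM per kb for mRpL12, a 13.3-fold range. The middle 50% of the members lay between 28.1 and 42.6 CPM per kb, and the median was 33.7 CPM per kb. The large subunit had a median of 33.9 CPM per kb and the small subunit one of 32.9 CPM per kb. Set beside other gene groups on the same per-length scale, this median was above that of all tested genes (10.6 CPM per kb), below that of nuclear genes for subunits of oxidative phosphorylation (86.7 CPM per kb, 72 genes) and far below that of the proteins of the cytoplasmic ribosome (1373 CPM per kb, 88 genes). Other mitochondrial gene groups had lower medians, at 20.1 CPM per kb for the translation factors of the organelle (8 genes) and 5.14 CPM per kb for its tRNA synthetases (15 genes). Genes that act on mitochondrial DNA or its RNA, called here genes of mitochondrial DNA expression, had a median of 10.3 CPM per kb (11 genes).

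The most abundant member was mRpL12 (FBgn0011787, arm 3L, 8956791 to 8957584, + strand, BDGP6), which encodes the counterpart of the bacterial L7/L12 stalk protein that recruits translation factors. It averaged 131.3 ± 28.7 CPM per kb (SD, n = 19 libraries). Next came mRpL22 (X, 16783933 to 16785092, + strand) with 118.9 ± 27.4 CPM per kb, mRpL30 with 80.0 ± 24.3, mRpS7 with 73.0 ± 19.7 and mRpS26 with 64.1 ± 16.6 CPM per kb. The gap between mRpL12 and mRpL22 was smaller than the SD of either. In bacteria, L7/L12 is the 1 protein present in several copies per ribosome. The lowest mean levels among the tested members belonged to mRpL21 (9.90 ± 2.96 CPM per kb), mRpL34 (11.1 ± 6.64), mRpL13 (12.7 ± 6.57), mRpL32 (16.3 ± 7.05) and mRpL17 (17.7 ± 7.96 CPM per kb). All of these 5 are large subunit genes, and the range in the small subunit was 18.2 to 73.0 CPM per kb.

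**Figure D1:**
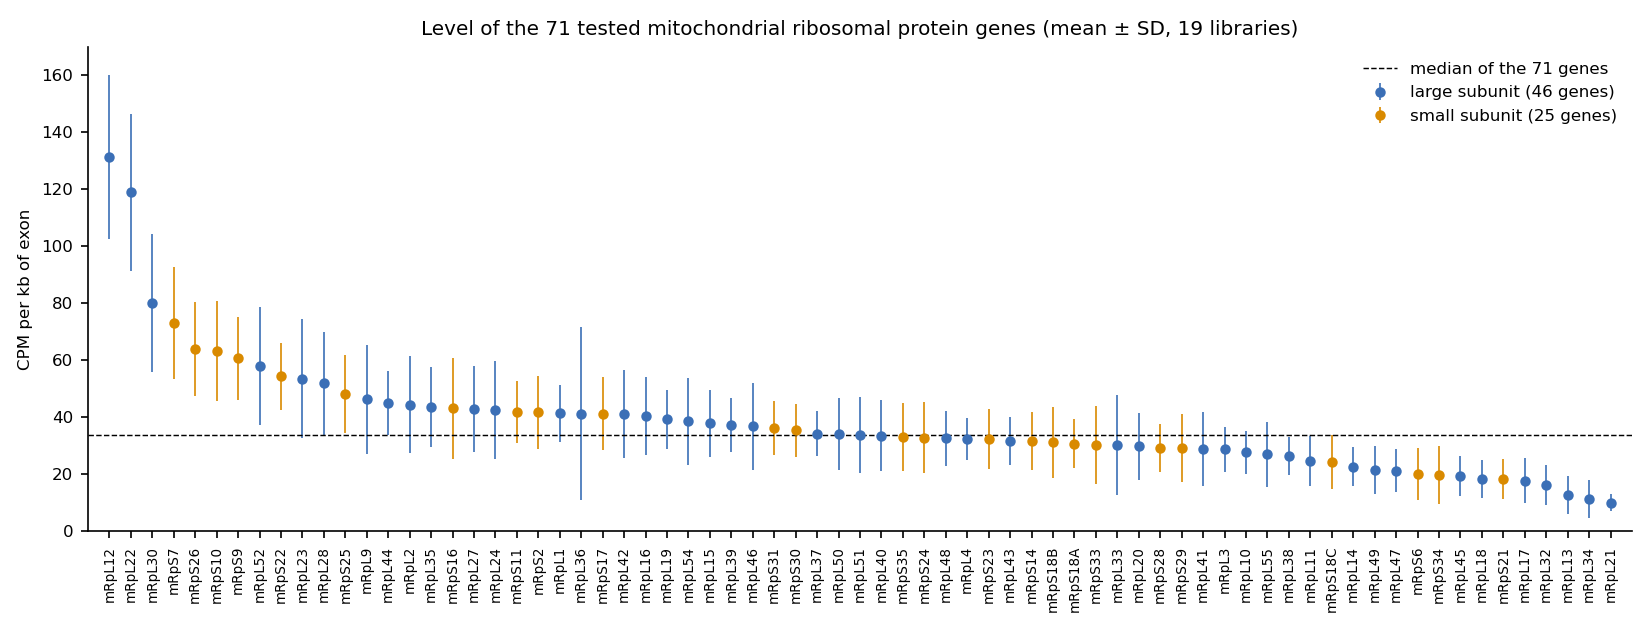
Mean level of each tested member of the large and small subunit in CPM per kb of exon, with the SD over the 19 libraries. Most members lie close to the median of 33.7 CPM per kb, and mRpL12 and mRpL22 stand above 100 CPM per kb.

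One member, mRpL53 (FBgn0050481, 2R, 13954195 to 13955664, + strand), had 0 counts in all 19 libraries and was not tested. A count of 0 would allow up to 3 counts per library. However, all of its 829 exon bases are shared with CG33155 on the same strand, and the counting at its default settings leaves out reads that fall in both genes, so the 0 says nothing on its expression. The exons of 43 members overlap those of another gene, 3 on the same strand and 42 on the opposite strand. Of mRpL13, 35.2% of the exon bases are shared with CG10602 on the same strand. Of mRpS14, 3.76% are shared with CG32533 on the same strand and 32% with Naa15-16 on the opposite strand. Besides mRpS14, the widest opposite-strand overlaps were those of mRpS24 (55.3%, with TBC1d7), mRpS21 (48.0%, CG8870), mRpS9 (25.1%, ArgRS-m), mRpL17 (23.6%, CG34263) and mRpL48 (20.8%). The others in which exons meet a gene on the opposite strand are mRpL1, mRpL2, mRpL4, mRpL9, mRpL10, mRpL11, mRpL15, mRpL16, mRpL18, mRpL23, mRpL24, mRpL28, mRpL30, mRpL32, mRpL34, mRpL35, mRpL39, mRpL41, mRpL42, mRpL43, mRpL44, mRpL47, mRpL50, mRpL51, mRpS2, mRpS16, mRpS18C, mRpS22, mRpS23, mRpS25, mRpS28, mRpS29, mRpS31, mRpS33 and mRpS34. The values of the members with wide overlaps are uncertain, since reads from the pair may have been dropped or assigned to the partner. Neither mRpL12, mRpL22, mRpL33, mRpL36 nor mRpL37 overlaps another gene.

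Over the 19 libraries the typical member varied less than the median gene. The members were also more abundant than the median gene (33.7 beside 10.6 CPM per kb), and no genes of matched level were compared. The SD of a member's log2 CPM had a median of 0.54, against 0.95 over all tested genes, 0.55 over the oxidative phosphorylation genes and 0.33 over the cytoplasmic ribosomal proteins. The medians of the large (0.54) and small subunit (0.52) were alike. The coefficient of biological variation within genotypes, as edgeR estimated it, had a median of 41.7% over the members and 59.1% over all tested genes. The steadiest members were mRpL12 (SD 0.32), mRpL4 (0.35), mRpS22 (0.35), mRpL22 (0.35) and mRpL44 (0.36), the last of which encodes a protein with a ribonuclease III-like fold. The most variable were mRpL33 (1.65), mRpL36 (1.38), mRpS33 (1.10), mRpL34 (1.07) and mRpL55 (1.01). These 5 were also the members whose lowest count in a library was 10 or less, at 1, 6, 4, 3 and 7 counts. Each of these lowest counts was in a ΔN library. The 71 members are not independent. Across them, the SD correlated with the mean level at a Spearman's rho of -0.72 and with the exon length at -0.59. Thus the short and less abundant members had the widest spread, and its cause was not tested. For mRpL33, mRpL36 and mRpS33, the counting error at the mean count was 8.58%, 5.99% and 7.18%. Their coefficients of biological variation were 77.3%, 62.2% and 61.0%.

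**Figure D2:**
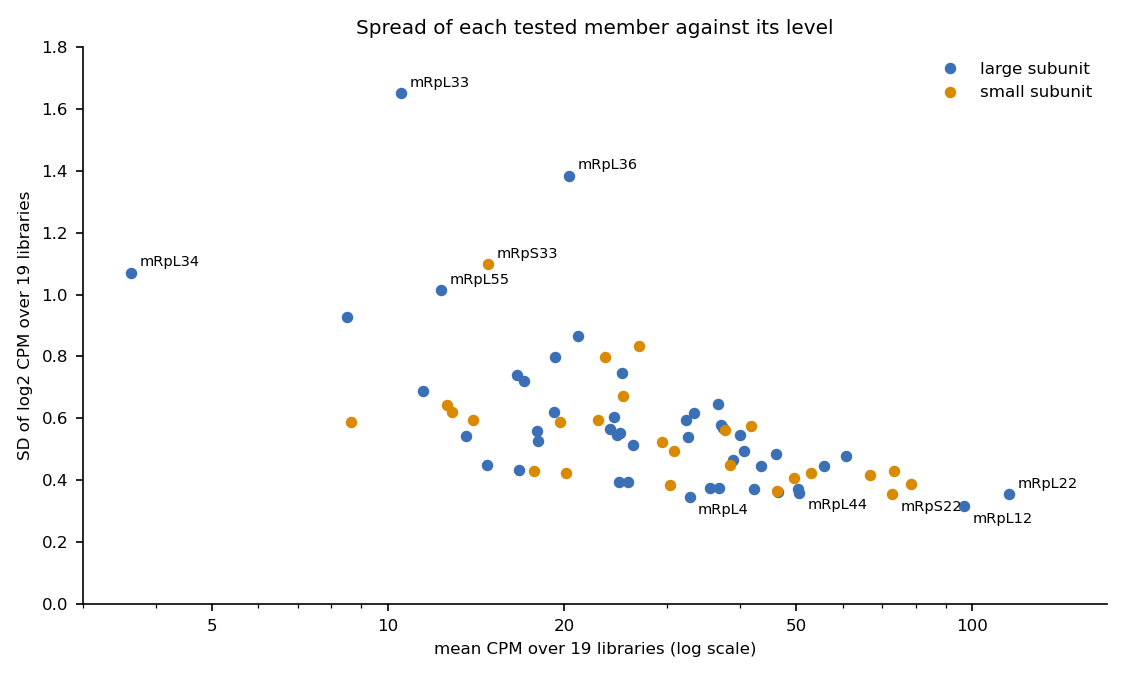
SD of log2 CPM over the 19 libraries of each member (vertical axis) against its mean level (log axis), with the members of both subunits marked. The spread falls as the level increases, and mRpL33 and mRpL36 lie highest at 1.65 and 1.38.

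Between genotypes, the average member on the TMM scale was highest in null and lowest in ΔN embryos. The mean log2 CPM of the 71 members was 4.90 ± 0.08 in null, 4.38 ± 0.22 in ΔN, 4.77 ± 0.10 in FLWF24, 4.67 ± 0.13 in FL and 4.74 ± 0.16 in WT embryos (SD over libraries). The null libraries lay between 4.79 and 4.96, the ΔN libraries between 4.12 and 4.65, FLWF24 between 4.68 and 4.91, FL between 4.52 and 4.78 and WT between 4.60 and 4.96. Hence every null library stood above every FL library, every ΔN library stood below every FLWF24 library, and null and WT overlapped, as did ΔN and WT. The lowest 3 of all 19 values were ΔN libraries (4.12, 4.36 and 4.39), and the remaining ΔN library, replicate 4 with the lowest depth, was at 4.65. No test was run on these means. In RNA from whole embryos, fewer cells of a type and less RNA per cell cannot be told apart.

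Both subunits followed this order at its ends. The large subunit averaged 4.88 in null, 4.34 in ΔN, 4.68 in FLWF24, 4.62 in FL and 4.71 in WT embryos, and the small subunit 4.95, 4.46, 4.93, 4.75 and 4.81 in the same genotypes. Summed rather than averaged on the log scale, where abundant members weigh more, the members reached 2630 ± 134.8 CPM in null, 2076 ± 447.5 in ΔN, 2414 ± 123.3 in FLWF24, 2262 ± 163.4 in FL and 2356 ± 284.4 CPM in WT embryos. The ΔN sums ran from 1715 to 2729 CPM, so that on this scale ΔN overlapped every other genotype. The first place of null embryos depended on the scaling. As a share of all gene counts, without TMM, the members took 0.236% ± 0.0138 in null, 0.222% ± 0.0400 in ΔN, 0.239% ± 0.0149 in FLWF24, 0.233% ± 0.0126 in FL and 0.241% ± 0.0333 in WT embryos, with ΔN lowest and null below both FLWF24 and WT.

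**Figure D3:**
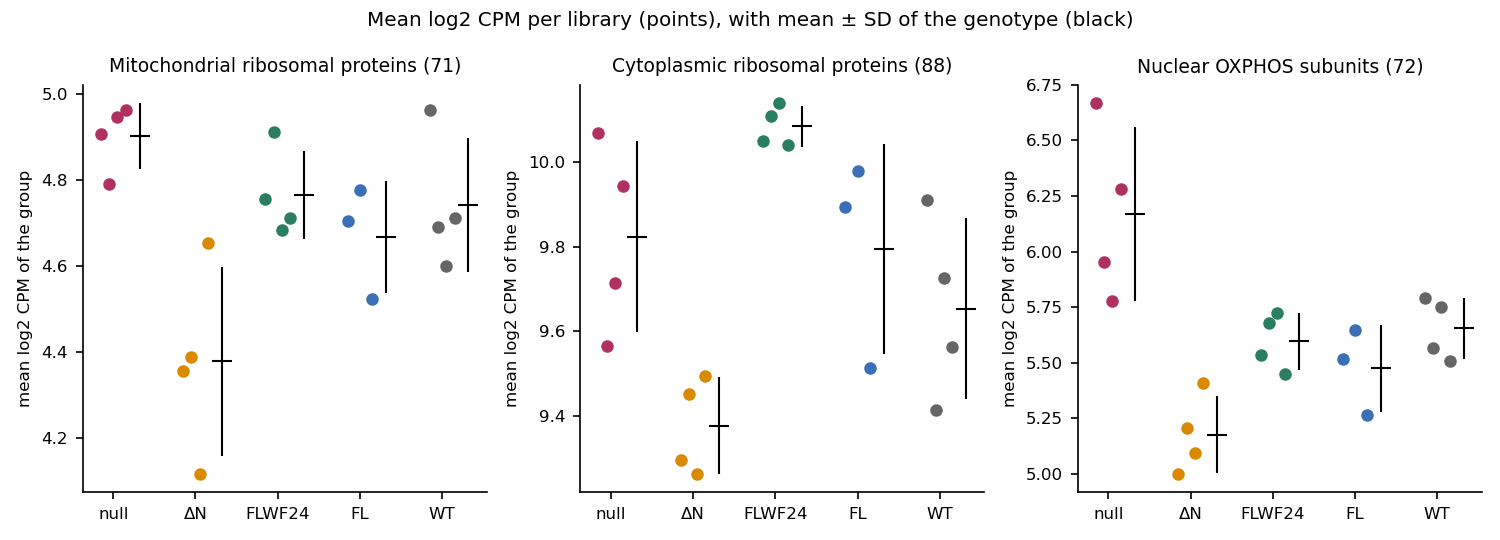
Mean log2 CPM of the members in each of the 19 libraries by genotype (null, ΔN, FLWF24, FL, WT), with the genotype mean. Null libraries lie at 4.79 to 4.96 and ΔN libraries at 4.12 to 4.65, which does not overlap FLWF24 at 4.68 to 4.91.

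Single members were tested in 8 comparisons with edgeR's quasi-likelihood test over all 11978 genes, with 1 RUV factor. This factor is estimated from the differences between replicates of a genotype. It also differed between genotypes, at 2.115, 0.797, 0.00387 and 1.533 in the null and -0.835, -0.806 and -0.670 in the FL libraries. Part of the difference between null and FL embryos therefore cannot be told apart from the factor. A gene was called where the Benjamini-Hochberg adjusted p was under 0.05 and the log2 fold change was 0.5 or more in size. CPM values are given without the RUV adjustment and fold changes with it, so the size and order of the means can depart from the fold change. None of the 71 members was called in any comparison, with or without the RUV factor. DESeq2 called none in 7 comparisons and 1, mRpL36, in ΔN against WT. The share of all genes called by edgeR was also small, at 0.501% for null against FL, 0.634% for null against WT, 0.0167% for ΔN against FL, 0.0751% for ΔN against WT, 0.342% for ΔN against FLWF24, 0.0250% for FLWF24 against FL, 0.184% for FLWF24 against WT and 0.0918% for FL against WT. In the same order, DESeq2 called 4.22%, 2.85%, 3.06%, 2.25%, 2.80%, 1.73%, 1.77% and 2.84% of all genes, and edgeR without the RUV factor called 10.9%, 1.47%, 0.0167%, 0.0668%, 0.250%, 0% and 0.134% in the first 7, and 0.0584% higher and 0.0417% lower in FL against WT.

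The absence of calls does not show equal levels. The 95% intervals used here were worked back from the F statistic of the test and are approximate. The 95% interval of the log2 fold change lay wholly within 1 of 0, that is within a 2-fold change in either direction, for 13 of 71 members in null against FL and for 23 in null against WT. It did so for 18, 23 and 20 members in ΔN against FL, WT and FLWF24, for 25 and 38 in FLWF24 against FL and WT, and for 29 in FL against WT. For nearly all other members a 2-fold difference in at least 1 direction lay inside the interval. The exceptions were mRpL36 in ΔN against WT, whose interval lay wholly beyond it, and mRpS2 in ΔN against FL and mRpL21 in ΔN against FLWF24, whose fold changes were so near 0 that no interval was computed. The median distance from the estimate to an end of its interval was 0.74 to 1.04 on the log2 scale, depending on the comparison.

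The comparison of null embryos with FL and WT embryos addresses what the loss of the embryo's own *chiffon* does. By immunostaining, the paper found no detectable Chiffon-A in later-stage embryos. From the likeness of ΔN and FLWF24 embryos to its controls, the paper assigned the genes changed in null embryos to CHAT rather than DDK. For the members, the part of each Chiffon product in this contrast was not tested here. Most members had a positive fold change in null embryos, and none passed the test. Against FL, 52 members had a positive and 19 a negative log2 fold change, with a median of 0.28, where the median over all genes was 0.05. Against WT, 48 were positive and 23 negative, with a median of 0.15 and an all-gene median of 0.03. An unadjusted p under 0.05 was reached by 1 member with a positive and 0 with a negative change against FL, where 7.94% and 3.72% of all genes reached it in these directions. Against WT it was reached by 3 and 0 members, where 6.24% and 5.29% of all genes did. The CPM of 6 members did not overlap between null and FL (5 higher and 1 lower in null, 28.4% of all genes not overlapping). Those of 3 members, all higher in null, did not overlap between null and WT, where 6.73% of all genes were higher and 4.15% lower without overlap. The stage score was also highest on average in null embryos (3.80 ± 1.59 in null, -1.54 ± 0.647 in FL and 0.819 ± 1.01 in WT embryos). Null replicate 3, at 1.56, nevertheless lay below WT replicate 4 at 1.75. With that score in place of the RUV factor the median was 0.14 against FL and 0.06 against WT, and the part of embryo stage in the difference was not tested further.

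The member with the smallest p in null embryos was mRpL42 (FBgn0033480, 2R, 10066650 to 10067242, + strand), a large subunit protein without a bacterial counterpart. It had 43.3, 26.5, 41.7 and 31.8 CPM in the 4 null libraries, 15.97, 27.6 and 25.9 CPM in the FL libraries and 27.8, 10.6, 19.7 and 23.9 CPM in the WT libraries. The null values were the higher on average, and the lowest null library overlapped the highest FL and WT libraries. The log2 fold change was 1.09 ± 0.41 (SE) against WT (adjusted p = 0.296, edgeR) and 1.08 ± 0.50 against FL (adjusted p = 0.411). The others with an unadjusted p under 0.05 were mRpS17 and mRpL15, both with counterparts in bacteria, at 0.81 (adjusted p = 0.354) and 0.70 (adjusted p = 0.411) against WT.

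The members that did not overlap between null and WT were mRpL33, mRpL50 and mRpS2. The transcript of mRpL33, a short protein of the large subunit (X, 4321764 to 4322231, - strand), was counted at 20.8, 13.4, 22.2 and 16.6 CPM in null, against 10.7, 11.1, 2.90 and 8.65 CPM in WT embryos. Its log2 fold change was 1.49 (adjusted p = 0.537), and those of mRpL50 and mRpS2 were 0.90 (adjusted p = 0.448) and 0.64 (adjusted p = 0.492). Against FL, the non-overlapping members were mRpL24, mRpL28, mRpL40, mRpS18B and mRpS26, each higher in null, and mRpS22, lower in null. None of these 6 reached an unadjusted p under 0.05, and the log2 fold changes were 0.80, 0.18, 0.22, 0.46, 0.57 and -0.33.

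**Figure D4:**
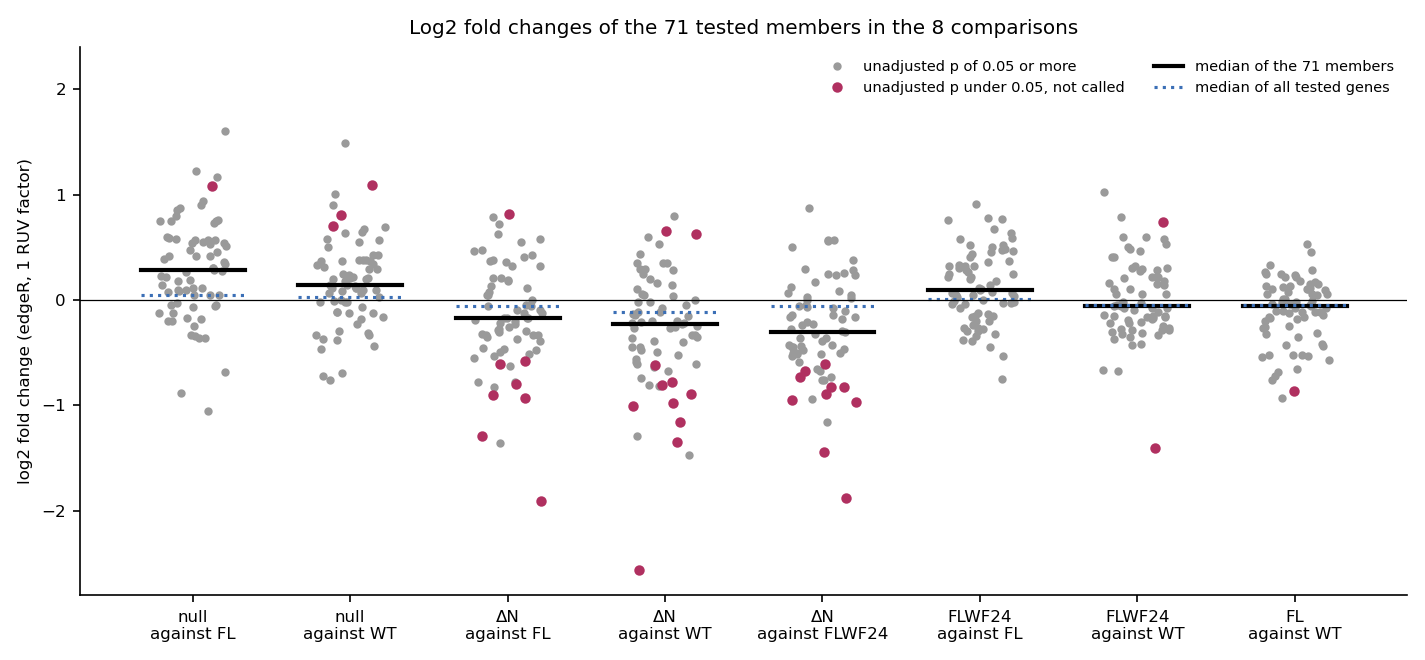
Log2 fold changes of the 71 tested members in each of the 8 comparisons, with the median. The medians are 0.28 and 0.15 for null against FL and WT, and -0.23 and -0.31 for ΔN against WT and FLWF24; no member was called by edgeR.

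ΔN embryos had lower fitted values for most members against each genotype they were compared with. The number of negative log2 fold changes was 47 of 71 against FL, 50 against WT and 52 against FLWF24. The medians were -0.17, -0.23 and -0.31, where those over all genes were -0.05, -0.11 and -0.06. The unadjusted p was under 0.05 for 1 member with a positive and 7 with a negative change against FL, for 2 and 9 against WT, and for 0 and 10 against FLWF24. The shares of all genes that reached it were 3.83% with a positive and 6.81% with a negative change against FL, 3.06% and 7.41% against WT, and 3.99% and 7.85% against FLWF24. Members without overlap numbered 5 against FL, 2 against WT and 3 against FLWF24, all lower in ΔN. Of all genes, 1.98% were higher and 5.23% lower in ΔN without overlap against FL, 1.56% and 3.52% against WT, and 1.45% and 3.53% against FLWF24. These 3 comparisons share the ΔN libraries, so their values are not independent of each other. ΔN replicate 4 had the lowest depth and the highest share of counts outside genes, and leaving it out moved the median against WT to -0.42.

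The smallest p in ΔN embryos was that of mRpL36 (FBgn0042112, 3L, 8124584 to 8125132, - strand), whose bacterial counterpart is one of the smallest proteins of the large subunit. Its level was 14.6, 7.37, 0.683 and 4.34 CPM in the ΔN libraries, against 55.0, 20.5, 18.9 and 54.4 CPM in the WT libraries. These are 229, 73, 6 and 23 counts in ΔN and 707, 184, 234 and 742 counts in WT embryos, and every ΔN library was below every WT library. The log2 fold change was -2.56 ± 0.62 (95% interval -3.85 to -1.27) with an adjusted p of 0.160. DESeq2 gave -2.50 with an adjusted p of 0.0102, and edgeR without ΔN replicate 1 gave -3.32 with an adjusted p of 0.0335. The FL libraries had 16.99, 38.5 and 24.8 CPM, also all above ΔN (log2 fold change -1.90 ± 0.63, adjusted p = 0.341). The FLWF24 libraries, at 10.2, 20.05, 12.4 and 13 CPM, overlapped ΔN, with a log2 fold change of ΔN against FLWF24 of -1.15 (95% interval -2.41 to 0.10). The 4 null libraries had 12.5, 11.5, 30.3 and 21.9 CPM.

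The smallest p against FLWF24, the other genotype that makes Chiffon-B alone, was that of mRpL37 (FBgn0261380, 3R, 10782563 to 10784092, - strand), a large subunit protein without a bacterial counterpart. It was at 31.1, 37.5, 28.6 and 28.5 CPM in ΔN, against 45.1, 66.0, 52.4 and 48.6 CPM in FLWF24 embryos. No ΔN value reached the lowest FLWF24 value, and the log2 fold change was -0.82 ± 0.23 (adjusted p = 0.177, 95% interval -1.31 to -0.34). The FL libraries (39.2, 57.5 and 45.9 CPM) were also all above ΔN, whereas 1 WT library overlapped (56.3, 33.4, 45.5 and 48.4 CPM), and the log2 fold changes were -0.58 (adjusted p = 0.414) and -0.62 (adjusted p = 0.361). In null embryos mRpL37 had 58.0, 55.9, 55.6 and 48.8 CPM.

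Of the small subunit, mRpS22 (FBgn0039555, 3R, 27916908 to 27918248, + strand), likewise without a bacterial counterpart, came next. Its libraries read 57.9, 52.2, 33.7 and 77.8 CPM in ΔN, against 101.2, 96.9, 81.2 and 74.1 CPM in FLWF24 and 91.0, 84.2 and 78.6 CPM in FL embryos. ΔN replicate 4 overlapped the lowest FLWF24 library and stayed just below the FL libraries. The log2 fold changes were -0.68 ± 0.22 against FLWF24 (adjusted p = 0.246) and -0.61 against FL (adjusted p = 0.377). The null libraries had 61.4, 65.7, 72.3 and 65.8 CPM and the WT libraries 76.0, 74.9, 66.5 and 71.9 CPM.

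The further members with an unadjusted p under 0.05 in ΔN embryos had adjusted p-values of 0.318 to 0.476 and were spread over both subunits. Against FLWF24 they were mRpS17 (-0.83), mRpL23 (-0.89), mRpS33 (-1.44), mRpL47 (-0.97), mRpL50 (-0.95), mRpS26 (-0.61), mRpL33 (-1.88) and mRpS35 (-0.73). Against WT they were mRpS35 (-0.98), mRpL24 (-0.81), mRpL17 (-1.16), mRpL47 (-1.01), mRpL32 (-1.35), mRpS23 (-0.90) and mRpL46 (-0.77), with positive changes of mRpL28 (0.62) and mRpL15 (0.66). Against FL they were mRpL17 (-1.29), mRpL46 (-0.90), mRpL27 (-0.80) and mRpL47 (-0.93), with a positive change of mRpL30 (0.82). Only mRpL37 and mRpL47, the counterpart of bacterial L29, reached an unadjusted p under 0.05 with a negative change in all 3 comparisons. Some of these values rest on few reads. The 4 ΔN libraries of mRpL33 had 0.0639, 4.95, 8.99 and 1.89 CPM, the first of them from 1 count, against 11.98, 17.9, 7.52 and 10.96 CPM in FLWF24 embryos. The transcript of mRpL24 was at 14.5, 21.5, 36.7 and 20.02 CPM in ΔN, against 40.8, 45.7, 42.0 and 39.4 CPM in WT embryos, and was the other member beside mRpL36 without overlap there.

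**Figure D5:**
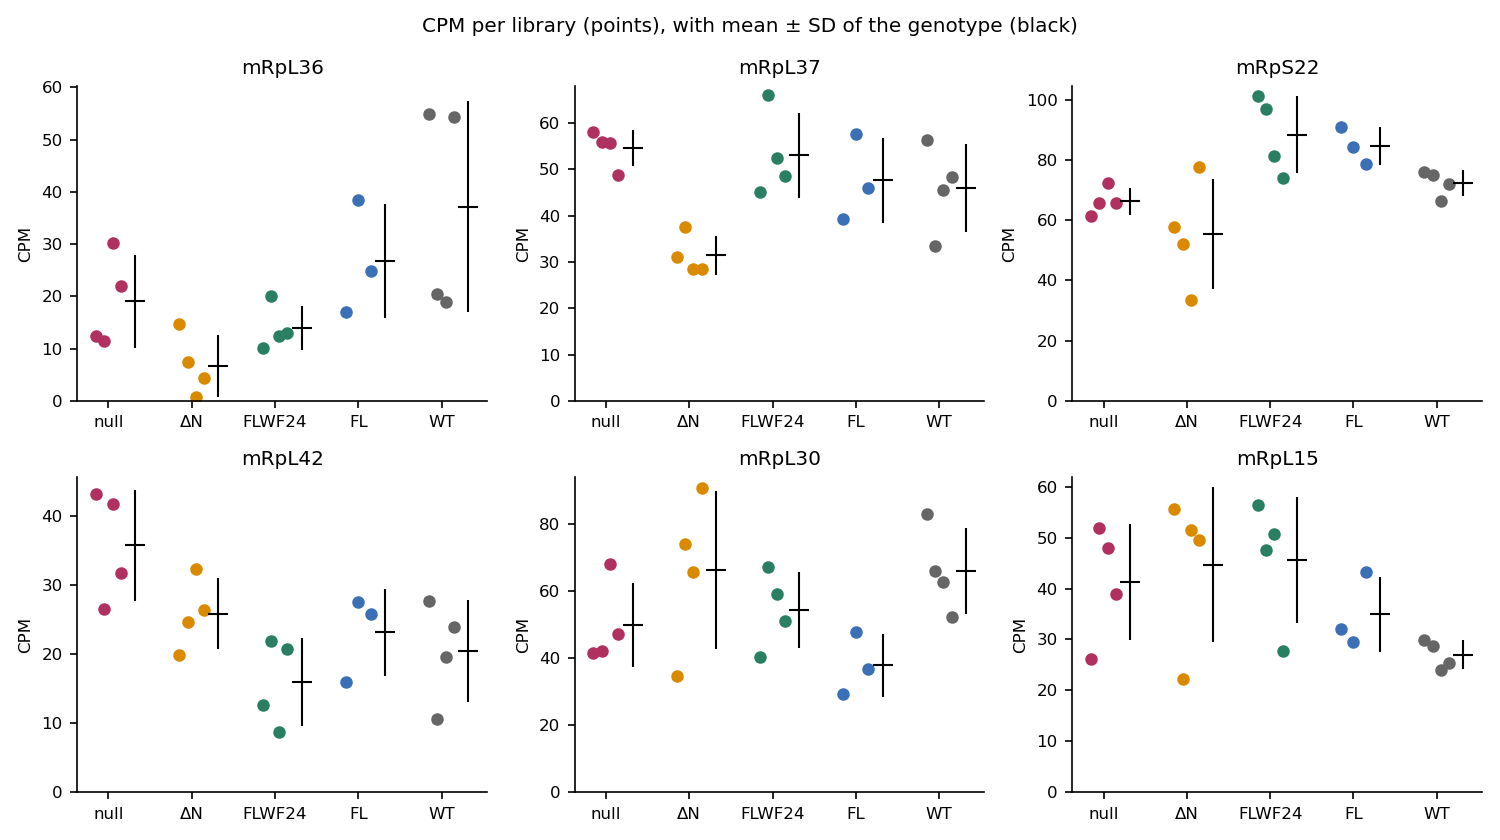
CPM in each library of mRpL36, mRpL37, mRpS22, mRpL42, mRpL30 and mRpL15 by genotype (null, ΔN, FLWF24, FL, WT), with the genotype mean. For mRpL36 the 4 ΔN libraries lie at 0.683 to 14.6 CPM, below all WT libraries at 18.9 to 55.0 CPM.

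In FLWF24 embryos the fitted differences from FL and WT embryos centred near 0. The median log2 fold change was 0.10 against FL (44 positive, 27 negative, all-gene median 0.01) and -0.06 against WT (31 positive, 40 negative, all-gene median -0.05). No member reached an unadjusted p under 0.05 against FL, where 3.72% of all genes did with a positive and 2.64% with a negative change. Against WT, 1 member with a positive and 1 with a negative change did so, and 4.25% and 5.83% of all genes. The negative one was mRpL36, with a log2 fold change of -1.41 ± 0.59 (adjusted p = 0.444). The positive one was mRpL15 (FBgn0036990, 3L, 20435110 to 20436209, - strand), whose bacterial counterpart lies in the core of the large subunit. It had 56.5, 47.5, 50.7 and 27.8 CPM in FLWF24, against 30.0, 28.8, 23.9 and 25.4 CPM in WT embryos. FLWF24 replicate 4 was within the WT range and the other 3 libraries were above it (log2 fold change 0.74, adjusted p = 0.444). The values of 9 members did not overlap between FLWF24 and FL (7 higher and 2 lower in FLWF24, beside 4.71% and 3.32% of all genes), of which mRpL18 had the largest log2 fold change, 0.91 (adjusted p = 0.941). Between FLWF24 and WT, 3 did not overlap (2 higher and 1 lower, beside 3.41% and 2.99% of all genes).

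FL embryos, in which the full-length transgene replaces the gene, set the level that the transgenic lines are compared with. Against WT the members had a median log2 fold change of -0.05, the same as that of all genes (-0.05), with 29 positive and 42 negative. The 1 member with an unadjusted p under 0.05 was mRpL30 (FBgn0029718, X, 4647871 to 4648646, + strand), with a negative change, where 3.30% of all genes reached it with a positive and 5.43% with a negative change. Its levels were 29.2, 47.6 and 36.7 CPM in FL, against 83.0, 66.0, 62.6 and 52.1 CPM in WT embryos, without overlap. The log2 fold change was -0.87 ± 0.32 (adjusted p = 0.400). In ΔN embryos the same gene had 34.6, 73.8, 65.5 and 90.6 CPM. The CPM of 5 members did not overlap between FL and WT (1 higher and 4 lower in FL, beside 5.43% and 7.56% of all genes).

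The neighbouring parts of the mitochondrial and translation machinery were read in the same fit. In ΔN against FLWF24, 0.342% of all genes were called. The proteins of the cytoplasmic ribosome had a median log2 fold change of -0.56, and 20 of 88 were called, all lower in ΔN. Among them were RpL36 (-1.64, adjusted p = 0.000813) and RpL24 (-1.10, adjusted p = 0.00176). The median of the mitochondrial ribosomal proteins in that comparison was -0.31, with 0 of 71 called and 10 at an unadjusted p under 0.05. Nuclear genes of oxidative phosphorylation had the same median (-0.31), and 2 of 72 were called, ND-B14.5B of complex I (-1.33) and UQCR-6.4 of complex III (-1.42), both lower in ΔN. The genes encoded in mitochondrial DNA had a median of -1.18, with 0 of 12 called and 5 at an unadjusted p under 0.05.

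In null against FL the oxidative phosphorylation genes had a median log2 fold change of 0.42 with 0 of 72 called and 11 at an unadjusted p under 0.05, and the median of the mitochondrial ribosomal proteins was 0.28 with 1 such gene. Without the RUV factor, 15 of the 72 were called higher in null against FL, with a median of 0.71, and 6 in null against WT. In these 2 comparisons, 0 members of the mitochondrial ribosome were called, beside 10.9% and 1.47% of all genes. The members were measured less precisely. Their median SE in null against FL without the factor was 0.39, beside 0.30 for oxidative phosphorylation and 0.20 for cytoplasmic ribosomal proteins. In FLWF24 against WT, 6 of 88 cytoplasmic ribosomal proteins were called, beside 0.184% of all genes. All 6 were higher in FLWF24 (among them RpL18, RpL24, RpS14b, RpS19a and RpS5b). The median of the 88 was 0.32, beside -0.06 for the mitochondrial ribosome. Of the 14 late muscle genes, which serve as stage markers, 2 were called higher in null against FL (Act57B and Prm) and 12 had an unadjusted p under 0.05. DESeq2 called 7 of them, and edgeR without the RUV factor called all 14. Of the late cuticle genes Cpr67Fa1 was called lower in FLWF24 against WT. The mitochondrial translation factors, tRNA synthetases, genes of mitochondrial DNA expression and genes encoded in mitochondrial DNA had no called gene in any of the 8 comparisons in the edgeR fit with the RUV factor. Without the factor, edgeR called 1 gene of mitochondrial DNA expression, higher in null against FL. DESeq2 called 1 gene encoded in mitochondrial DNA higher in FLWF24 against WT and 1 lower in ΔN against FLWF24. Their differences from the members were not tested.

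Some proteins of the mitochondrial ribosome have names outside the rule. The product of tko is the mitochondrial counterpart of bacterial S12, known for its bang-sensitive mutant, that of bonsai is the counterpart of S15, and CRIF is the fly relative of a mammalian large subunit protein. Their mean levels of 24.0, 39.8 and 69.5 CPM per kb lay within the range of the members. None was called. In ΔN against FLWF24 the log2 fold changes were -0.64 for tko, -0.15 for bonsai and -0.96 for CRIF (adjusted p = 0.218), and in ΔN against WT they were -0.74 (adjusted p = 0.465), -0.17 and -0.76 (adjusted p = 0.386).

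From library to library the members moved together only loosely. The correlation of a member's log2 CPM with the mean of all other members over the 19 libraries had a median of 0.34, was above 0 for 66 of 71 members and above 0.5 for 18. It was highest for mRpS26 (0.80), mRpS35 (0.78) and mRpL37 (0.75) and lowest for mRpL16 (-0.26). Among all other genes, those most like the mean of the members were RpS12 of the cytoplasmic ribosome (0.88), ATPsynF of the ATP synthase (0.87), porin, the channel of the outer mitochondrial membrane (0.84), HINT1 (0.84) and CG31373 (0.83). These are descriptions over the same 19 libraries, which share their depth, scaling and genotype differences.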

How the data were processed

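Total RNA of pooled embryos was made into rRNA-depleted libraries. After trimming (Trimmomatic) and alignment to BDGP6 (HISAT2), the authors counted reads per gene with htseq-count 0.11.1 at its default settings, which assume stranded reads. Whether the kit keeps strand is not given in the sources used here. The deposited table holds these raw counts in 17906 entries (17807 genes, 92 ERCC sequences, 2 reporters and 5 summary lines), and only genes were used. Reads outside the gene entries were 63.6% to 96.0% of a library. FL libraries carried the numbers 2 to 4 in the table and other numbers in the labels; their columns were assigned to the genotype only and keep the table's numbers.

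After removal of 138 rRNA genes, the table held 15055 genes with a count in any library, and filterByExpr kept 11978. Counts were scaled by TMM, and all 19 libraries were fitted together with edgeR 4.0.16 (robust quasi-likelihood, R 4.3.3) on genotype and 1 RUVs factor estimated from replicates. Adjusted p-values cover all tested genes. Levels per kb used exon lengths of Ensembl release 115 of BDGP6. The SD of log2 CPM used a prior count of 1. The fit was also run on simulated counts with changes in ΔN alone and no unwanted factor. That run cannot show how the fit behaves where the RUV factor differs between genotypes.

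Alternatives were no RUV factor, the stage score in its place, other scaling, no filter, DESeq2 1.42.0, a replicate block and leaving out each library. The text names, per comparison, called members or else those with the smallest unadjusted p, fewer than the 10 per direction allowed, together with the 5 highest and 5 lowest in level and in spread, the members with overlapping exons, tko and bonsai, examples of the called genes of the other lists (1 is not reported here), and the 5 genes most like the members' mean. CRIF and the members without overlap between groups were named after their values were seen. The members and lists were chosen with earlier results of these data known.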

Additional observations from a re-analysis of the deposited data

Results flagged for a closer look

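Within a genotype of 4 libraries, 1 library lay far from the other 3, past Dixon's critical value for the gap divided by the range, in 5 of 112 groups tested, or 4.46%, where chance gives about 1 in 20. In null embryos mRpS23 was at 18.3 CPM in replicate 4 and at 28.9 to 29.8 CPM in the others. In ΔN embryos mRpL17 was at 21.9 CPM in replicate 4 and at 5.75 to 7.85 CPM in the others, and mRpS17 was at 10.01 CPM in replicate 4 and at 28.9 to 32.8 CPM in the others. In FLWF24 embryos mRpL46 was at 14 CPM in replicate 3 and at 31.2 to 34.3 CPM in the others, and the mean log2 CPM of the small subunit was 4.83 in replicate 1 and 4.95 to 4.97 in the others.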

How the results depend on the processing

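The count of called members was 0 in every comparison under every alternative run, except that 1 member, mRpL36, was called in ΔN against WT by DESeq2 (-2.50) and by edgeR without ΔN replicate 1 (-3.32). Leaving out each library in turn gave 0 to 1 called members in ΔN against WT and 0 to 0 in each of the other 7 comparisons. Of 1215 values of named members under alternatives, 1213 kept their direction and side of the threshold, 2 passed it (both mRpL36) and 0 reversed. The adjusted p of mRpL36 in ΔN against WT ran from 0.0102 to 0.375, that of mRpL37 in ΔN against FLWF24 from 0.0600 to 0.388 and that of mRpS22 there from 0.0615 to 0.430.

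The median log2 fold change of the members stayed on 1 side of 0 over all alternatives for null against FL (0.14 to 0.35), null against WT (0.04 to 0.23), FLWF24 against FL (0.03 to 0.14), ΔN against FL (-0.29 to -0.11), ΔN against WT (-0.42 to -0.13) and ΔN against FLWF24 (-0.37 to -0.19). It crossed 0 for FL against WT (-0.14 to 0.03) and for FLWF24 against WT (-0.09 to 0.10), the last value without WT replicate 1. In null against FL, the gap between this median and that of all genes ran from 0.06 to 0.28. The gap ran from 0.0025 to 0.22 in null against WT and from 0.026 to 0.17 in FLWF24 against FL. For ΔN it ran from -0.19 to -0.017 against FL, from -0.24 to 0.02 against WT and from -0.28 to -0.14 against FLWF24. Under some alternatives the members were thus near the all-gene median in several of these comparisons. Same-numbered libraries did not deviate together (r from -0.35 to 0.22, 5 of 24 pairs over 0.1). With the replicate number as a block and the FL libraries left out, 0 members were called in null against WT, FLWF24 against WT, ΔN against WT and ΔN against FLWF24. Over all genes that fit called 68, 19, 4 and 16 genes, against 76, 22, 9 and 41 in the fit of all libraries without the block. No paired analysis was possible because the FL numbers differ between table and labels, for the comparisons with FL. Counts of 10 or less limit mRpL33, mRpL34, mRpL36, mRpL55 and mRpS33. The lowest count was in ΔN replicate 1 for mRpL33, in ΔN replicate 4 for mRpS33 and in ΔN replicate 3 for the others. ΔN replicate 4 had the lowest depth of all libraries.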
